A study of Mus musculus with 4 samples.

Results

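The response of control hepatocytes to palmitate was read by setting 1 array of cells given 200 µM palmitate against 1 array of untreated cells. These are 2 of the 4 arrays of the series, taken by their labels, and 16829 of the 37074 genes named on the array were measured on both. Both arrays hold primary hepatocytes of male C57BL/6 mice, isolated by collagenase perfusion, cultured in a medium with serum and insulin, and harvested 24 h after seeding. The control genotype carries floxed Drp1 alleles (gene Dnm1l) without Cre. The source label calls the cells wild-type, the title of the palmitate array names Drp1flox, and the methods describe floxed littermates. The other 2 arrays hold Drp1LiKO hepatocytes, untreated or with 200 µM palmitate, in which Cre under the albumin promoter deletes the floxed allele. They are used only for a reading beside the control values. The label of the untreated control array adds that its raw data serve a sample of a second series. The length of the palmitate exposure and the vehicle of the untreated cells were not given for the arrays in the sources used here.

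With 1 array in each group, the spread between animals or cultures is unknown and no p-value was computed. Both palmitate arrays share a slide that holds no untreated array, so that palmitate and slide cannot be told apart in any value below. A gene was measured when its probe was well above background on both control arrays by the flag of the scanner software. Levels are log2 processed signals from which the 75th percentile of their own array was subtracted. A difference is the palmitate level minus the untreated level, and a difference of at least 1 in size is a change of at least 2-fold. Since values are relative to the bulk of the probes, a shift shared by most transcripts is not visible.

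Palmitate is the most abundant saturated fatty acid in blood. Hepatocytes take it up, activate it to palmitoyl-CoA, and oxidise it in mitochondria, export it in lipoproteins, or store it as triglyceride in lipid droplets. Fatty acids are ligands of the nuclear receptor PPAR-alpha, which drives genes of fatty acid oxidation. Saturated fatty acids in excess are also known to stress the endoplasmic reticulum and to set off inflammatory signalling through NF-kB, and the resulting chemokines recruit leukocytes to the liver.

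With palmitate, 186 of the 16829 measured genes (1.11%) passed 2-fold, of which 143 were higher (0.850% of all) and 43 lower (0.256%). The median difference over all measured genes was 0.015. Few called genes had another probe measured on both arrays. Of 12 such probes of 11 higher genes, 3 were at least 2-fold higher and 11 had the same sign, with a median of 0.49. Of 6 such probes of 5 lower genes, 0 were at least 2-fold lower and 5 had the same sign, with a median of −0.21. The genes with the largest differences were Hspa1a and Hspa1b, which encode the inducible cytosolic chaperone Hsp70, and Marco, a scavenger receptor of macrophages. Chemokine genes and interferon-stimulated genes followed as groups. No gene in the lists on fatty acid uptake, oxidation, storage and synthesis passed 2-fold. For lists of this size, here and below, a count of 0 lies close to the 1.11% of all genes. Counts of higher and of lower genes in a list stand beside the 0.850% and 0.256% of all genes. A single gene past 2-fold is not read as a result about its list. The untreated array was somewhat brighter, with a 75th percentile of 485 against 424 and with 48.2% against 44.7% of probes well above background. Probes printed 10 times had a median SD of 0.037 and 0.034 log2 units between their spots, which covers spot noise within an array only. The RNA spike-ins added at labelling, of which 7 of 10 were measured, read 0.15 to 0.25 higher on the palmitate array relative to the 75th percentile, with a median of 0.22. With the spike-ins set to no difference, a scale added after the data were seen, 81 genes were higher and 73 lower.

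**Figure D1:**
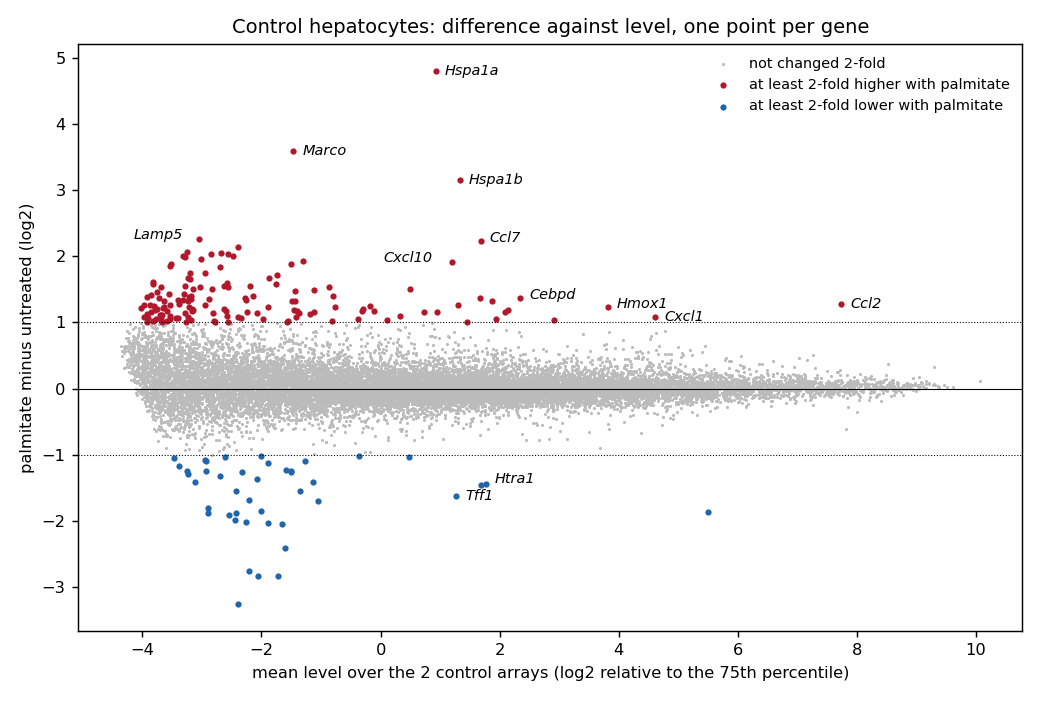
Each point is 1 of the 16829 genes measured on both control arrays, with its mean level over the 2 arrays on the x axis (log2 relative to the 75th percentile) and its difference, palmitate minus untreated (log2), on the y axis. Dotted lines mark 2-fold. The cloud widens towards low levels, and Hspa1a at 4.80 and Hspa1b at 3.16 stand above genes of similar level.

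The share of genes past 2-fold depended on the level. It was 3.67% of the 1907 genes with a mean level under −3, and 0.136% of the 5886 genes over 2. Of the 143 higher genes, 93 had a mean level under −2. The SD of the difference went from 0.43 in the lowest class to 0.16 in the highest. Among the 9831 genes with a mean level of at least 0, 26 (0.264%) differed at least 2-fold, 21 higher and 5 lower. Named here after their values were seen, the higher genes were Hspa1a, Hspa1b, Ccl7, Cxcl10, Oas1f, Oas1a, Cebpd, Isg15, Ccl2, Xaf1, Hmox1, Rtp4, Ccl5, Ccl20, Cxcl1, Oxsm, BC036642 and 4 transcripts without a symbol. Of those with a symbol, all but Cebpd, Hmox1, Oxsm and BC036642 are chaperone, chemokine or interferon-stimulated genes.

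The lower genes lay differently on the array. A spot was counted as having lit neighbours when at least 2 of the 24 spots around it were well above background on that array and on no other. On the untreated array this held for 27 of the 43 lower genes (62.8%), 5 of the 143 higher genes (3.50%) and 6.44% of all measured genes. On the palmitate array it held for 18 of the higher genes (12.6%) against 3.54% of all. With such probes left out on either array, 120 genes were higher and 15 lower. The part of the array surface in these differences was not tested.

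**Figure D2:**
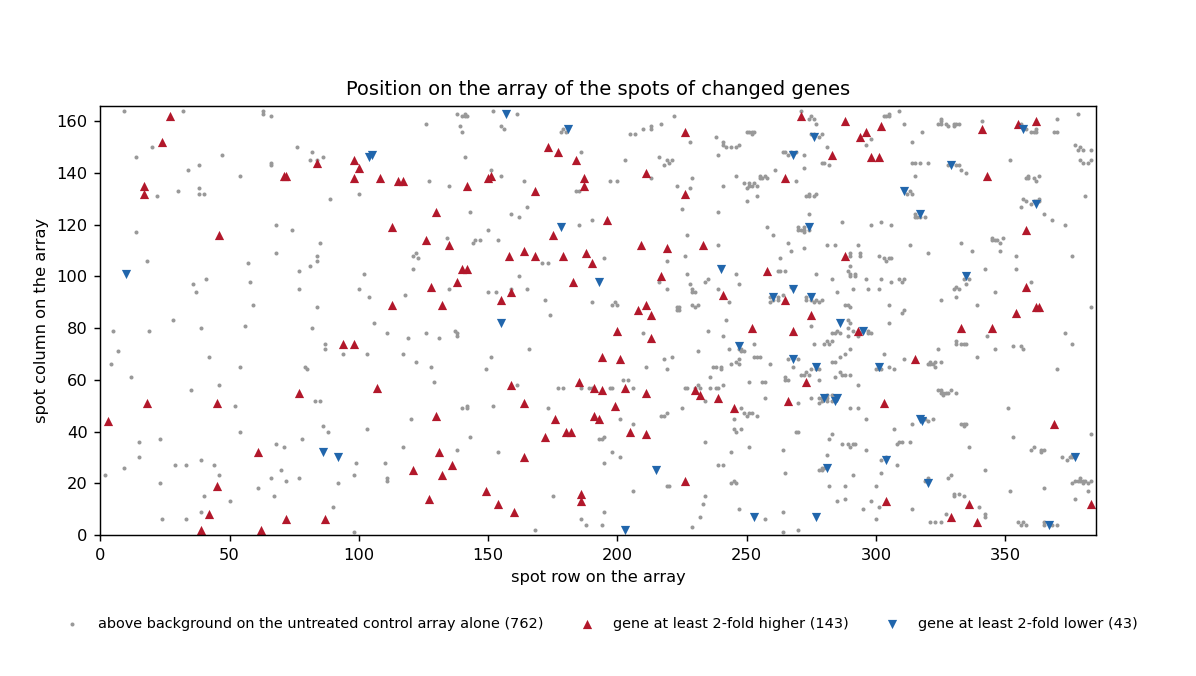
Positions on the array of the spots of the 143 higher genes (red triangles) and the 43 lower genes (blue triangles), by spot row and spot column. Grey points are the 762 spots that passed the background flag on the untreated control array and on none of the other 3. The grey points are denser at high row numbers, where many of the lower genes also lie.

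The Hsp70 genes gave the largest difference. Hsp70 binds unfolded proteins in the cytosol, and Hspa1a and Hspa1b are the intronless copies that the transcription factor Hsf1 switches on during proteotoxic stress. Hspa1a had a processed signal of 174 on the untreated array and 4255 on the palmitate array, and its level went from −1.48 to 3.33. The difference of 4.80 (27.9-fold) was the largest of all measured genes. Hspa1b had signals of 409 and 3193 and levels of −0.25 and 2.91, a difference of 3.16 (8.93-fold). The probe of Hspa1a lies on chromosome 17 at 35106766 to 35106825 and that of Hspa1b at 35093374 to 35093405 (mm9, minus strand, from the array files). The 2 copies have nearly the same coding sequence, so part of the signal of each probe may come from the other copy. Both differences stayed above 2.9 under each of the 12 alternative ways of processing that were run.

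The rest of the cytosolic heat shock list showed small differences. Of its 25 measured genes 2 were at least 2-fold higher and 0 lower, against 0.850% and 0.256% of all genes, and the list median was 0.053. Bag3, a co-chaperone of Hsp70, was next with 4.03 and 4.58, a difference of 0.55. Dnajb1, the Hsp40 partner, read 3.96 and 4.31 (0.36), and Hsph1, a nucleotide exchange factor, 3.21 and 3.47 (0.26). The constitutive Hsp70 gene Hspa8 read 6.94 and 7.14 (0.19), and Hsp90aa1, the inducible Hsp90, 7.04 and 7.22 (0.17). By the probes used, the difference was thus steep for Hspa1a and Hspa1b and under 0.6 for the other 23 members. A second measured probe of Dnaja1, with levels of −3.48 and −2.03, gave 1.45. Another probe of Hspa4l gave 0.94, while its further measured probes gave −0.22 and −0.15.

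The bases upstream of both Hsp70 genes are shown because these genes differed most. The sequences are the 250 bases before the transcription start in RefSeq (GRCm38.p6, minus strand, chr17:34972157-34972406 for Hspa1a and chr17:34959239-34959488 for Hspa1b), 5′ to 3′, with the heat shock element core (GAANNTTC or TTCNNGAA) in capitals.
Hspa1a: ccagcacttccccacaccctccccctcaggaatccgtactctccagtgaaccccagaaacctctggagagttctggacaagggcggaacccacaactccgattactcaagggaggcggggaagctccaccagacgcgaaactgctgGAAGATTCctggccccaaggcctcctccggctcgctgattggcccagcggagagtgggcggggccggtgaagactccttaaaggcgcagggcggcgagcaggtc
Hspa1b: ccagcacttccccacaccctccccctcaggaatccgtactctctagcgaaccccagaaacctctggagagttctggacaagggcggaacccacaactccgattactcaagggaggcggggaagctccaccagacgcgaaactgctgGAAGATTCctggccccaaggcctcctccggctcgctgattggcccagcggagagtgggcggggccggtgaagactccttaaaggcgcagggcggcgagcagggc

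The Hspa1a and Hspa1b stretches agree at 247 of 250 positions, and each holds the core once, 104 bases before the start. Both patterns are their own reverse complement, so they cover both strands. At least 1 core is present in the same window of 12.8% of the 32851 RefSeq promoters. Among the 19 measured heat shock genes with a promoter there, 9 hold it, among them Hsph1, Hspb1, Dnaja1 and Dnajb4. A match is a string of letters and not a binding site.

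Chemokine genes were higher as a group. The CC chemokines, ligands that mainly attract monocytes and lymphocytes, had a list median of 1.16. Of 9 measured genes 6 were at least 2-fold higher and 0 lower, against 0.850% and 0.256% of all genes. Ccl2, the main attractant of monocytes through the receptor Ccr2, went from a signal of 66315 to 140586 and from a level of 7.09 to 8.37 (1.28, 2.43-fold). Ccl7, which binds the same receptor, went from 0.57 to 2.80 (2.23, 4.68-fold), and its spot had 3 lit neighbours on the palmitate array. Ccl5, which attracts T cells, went from 0.14 to 1.30 (1.17), and Ccl20, the ligand of Ccr6, from 0.37 to 1.53 (1.16). Ccl4 went from −4.07 to −2.32 (1.75), and a second probe of Ccl4 gave 1.83. Ccl9 gave 1.02, while Ccl25, Ccl27a and Ccl6 gave 0.01, −0.25 and −0.57. Other measured probes of Ccl25 disagreed, with 0.06 and −2.42. Ccl3 was above background on the palmitate array alone.

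Of the CXC chemokine genes, 4 of 11 measured were at least 2-fold higher and 0 lower, against 0.850% and 0.256% of all genes. The list median was 0.51. Cxcl10, an interferon-inducible ligand of Cxcr3 that attracts T cells, went from a signal of 572 to 1883 and from a level of 0.24 to 2.15 (1.91, 3.77-fold). Cxcl1, a neutrophil attractant, went from 4.07 to 5.15 (1.08), with 3 lit neighbours on the palmitate array. Scaled to the spike-ins its difference was 0.86. Its relative Cxcl3 went from −4.63 to −3.02 (1.61), with 3 lit neighbours on the untreated array, and Pf4 from −4.33 to −3.31 (1.02). Cxcl2 gave 0.84 and Cxcl16 0.51, and a second probe of Cxcl16 gave 0.14. The other Cxcr3 ligands Cxcl9 and Cxcl11 gave 0.07 and 0.11, so that of the 3 ligands of this receptor Cxcl10 alone passed 2-fold. The probe of Cxcl11 read 7.85 and 7.96, far above its second measured probe at 1.86 and 2.10, which gave 0.24. Which of them reads Cxcl11 mRNA was not tested.

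Some inflammatory genes could be read only as bounds, because their probes were above background on the palmitate array alone. Their bound sets the palmitate value against the higher of the probe's own untreated value and the lowest value among probes above background on the untreated array. Cxcl5, a neutrophil attractant, was at least 9.80-fold higher, Ccl3 at least 8.07-fold, Il1b, a cytokine matured by inflammasomes, at least 7.09-fold, and Il6 at least 2.58-fold. In signal, Il1b went from 8.1 to 113 and Il6 from 4.0 to 41.1, both near the lower end of the scale. Kcnk7, a potassium channel gene, was at least 7.71-fold higher. Over all genes, 435 were above background on the palmitate array alone, 284 of them with a bound of at least 2-fold, and 1496 on the untreated array alone, 182 with such a bound. The inflammasome sensor Nlrp3 was not well above background on either array.

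The list of cytokines and inflammatory enzymes had a median of 0.26. Of its 17 measured genes, 1 was at least 2-fold higher and 0 lower, against 0.850% and 0.256% of all genes. That gene was Ptgs2, the inducible cyclooxygenase, which went from −1.93 to −0.79 (1.14). Scaled to the spike-ins its difference was 0.918. Tnf differed by 0.37, Csf2, a growth factor of macrophages and granulocytes, differed by 0.96, and Il18 by 0.28. In the list of NF-kB factors, inhibitors and targets 2 of 24 were higher and 0 lower, against the same shares, with a median of 0.14. Nfkbiz, a nuclear co-factor of NF-kB, went from −0.81 to 0.44 (1.25), and its second measured probe gave 1.60. Zc3h12a, an RNase that degrades cytokine mRNAs, went from −2.94 to −1.86 (1.08), but its second probe gave 0.17. The inhibitor genes Nfkbia and Tnfaip3 gave 0.60 and 0.41. The subunit genes Rela, Nfkb1 and Rel gave −0.01, 0.13 and −0.14, and Relb gave −0.40. Other measured probes of Relb gave 0.28 and −0.26.

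Interferon-stimulated genes all lay on 1 side of the bulk. Type I and III interferons signal through Stat2 and Irf9 to genes that block viral replication. All 37 measured genes were above the median of all genes, and the list median was 0.62. Of them, 12 were at least 2-fold higher and 0 lower, against 0.850% and 0.256% of all genes. Isg15, a ubiquitin-like protein, went from a signal of 1122 to 2442 and from a level of 1.21 to 2.53 (1.32, 2.49-fold), with 2 lit neighbours on the palmitate array. Oas1a, a sensor that makes the activator of RNase L, went from 0.99 to 2.36 (1.37, 2.59-fold). Rtp4 went from 1.55 to 2.74 and Xaf1, a promoter of apoptosis, from 0.67 to 1.93. Zbp1, a sensor of Z-form nucleic acids, and Dhx58, a regulator of RNA sensing, gave 1.18 and 1.05.

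Lower in level, Oasl2 gave 1.68 with 3 lit neighbours on the palmitate array, Gbp3, a guanylate-binding protein, went from −1.86 to −0.36 (2.82-fold), and Ifit1, which binds foreign RNA, gave 1.35. Ifit3 and Mx2 were 2.14-fold and 2.00-fold higher. Rsad2, the antiviral enzyme viperin, went from −2.45 to −0.57 (1.88), but its second measured probe gave 0.20. The transcription factor genes described here were below 2-fold. Irf7 read 4.34 and 5.21 (0.86) and its second probe gave 0.87, Irf9 gave 0.61, Stat2 0.56 and Irf1 0.20. Bst2, which tethers virions to the cell, read 4.68 and 5.31 (0.63). Ifnl3, an interferon lambda gene, went from −4.26 to −3.03 (1.23) close to background. Ifit2 gave the smallest difference in the list, 0.04.

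The upstream bases of Cxcl10, Isg15 and Ifit1 are shown, as 3 of the genes that were higher in these groups. They come from the same RefSeq table and window (GRCm38.p6, chr5:92348890-92349139 minus strand, chr4:156200819-156201068 minus strand and chr19:34640639-34640888 plus strand), 5′ to 3′. Capitals mark the interferon-stimulated response element (TTCNNTTTC or GAAANNGAA, the same pattern read on either strand) and the kappa-B motif.
Cxcl10: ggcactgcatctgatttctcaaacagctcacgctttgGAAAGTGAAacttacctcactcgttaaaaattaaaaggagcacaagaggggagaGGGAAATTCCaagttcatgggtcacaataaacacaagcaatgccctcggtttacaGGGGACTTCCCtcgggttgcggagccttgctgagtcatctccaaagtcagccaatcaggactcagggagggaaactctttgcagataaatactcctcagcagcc
Isg15: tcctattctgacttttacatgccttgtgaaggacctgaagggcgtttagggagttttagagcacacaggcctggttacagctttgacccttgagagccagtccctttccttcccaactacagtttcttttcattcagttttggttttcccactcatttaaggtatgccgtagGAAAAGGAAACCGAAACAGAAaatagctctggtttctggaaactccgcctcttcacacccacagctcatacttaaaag
Ifit1: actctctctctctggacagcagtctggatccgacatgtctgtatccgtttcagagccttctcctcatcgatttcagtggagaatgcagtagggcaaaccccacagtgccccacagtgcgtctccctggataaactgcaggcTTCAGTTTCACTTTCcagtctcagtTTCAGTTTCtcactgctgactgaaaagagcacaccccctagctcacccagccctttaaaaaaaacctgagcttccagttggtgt

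The stretch of Cxcl10 holds the interferon element once, 213 bases before the start, and kappa-B matches starting 159, 104 and 103 bases before it, the last 2 overlapping. That of Isg15 holds 3 overlapping interferon elements starting 78, 72 and 66 bases before the start, and that of Ifit1 holds 3, starting 109, 103 and 84 bases before it. Of all 32851 promoters, 7.13% hold the interferon element and 7.25% the kappa-B motif. Of the 8 interferon-stimulated genes that were at least 2-fold higher and have a RefSeq promoter, 6 hold the interferon element (Gbp3, Ifit1, Ifit3, Isg15, Oas1a and Rsad2) and 0 the kappa-B motif. Over all measured interferon-stimulated genes with a promoter, 14 of 28 hold the interferon element and 5 of 28 (17.9%) the kappa-B motif. Of the 4 higher CXC chemokine genes 3 hold the kappa-B motif (Cxcl1, Cxcl3 and Cxcl10). Over the 9 measured CXC genes with a promoter 4 hold it, among them Cxcl2, which did not pass 2-fold. Hspa1a and Hspa1b hold the kappa-B motif as well.

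**Figure D3:**
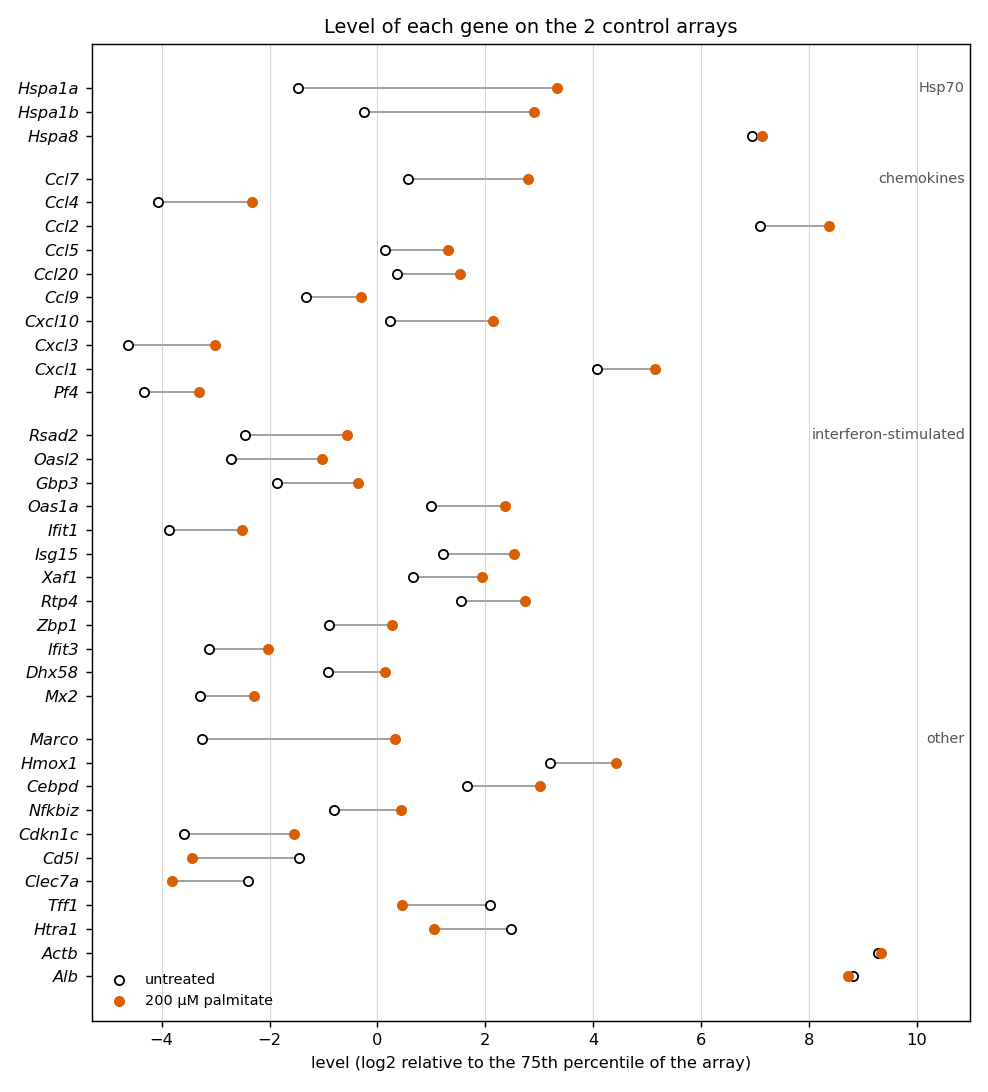
Level of 36 genes on the untreated (open circle) and palmitate (filled circle) control arrays, in log2 relative to the 75th percentile of the array. The chemokine and interferon-stimulated genes drawn are those called at least 2-fold higher, so each lies further right with palmitate by choice. Members of these lists that did not pass 2-fold are not drawn. Cd5l, Clec7a, Tff1 and Htra1 lie further left, and the pairs of Hspa8, Actb and Alb nearly coincide.

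Genes of macrophages differed in both directions. Hepatocyte preparations hold some Kupffer cells, the resident macrophages of the liver, and in a bulk sample fewer cells of a type and less RNA per cell cannot be told apart. Marco went from a signal of 50.7 to 535 and from a level of −3.26 to 0.33 (3.59, 12.1-fold). Adgre1, which encodes the F4/80 antigen, went from −3.39 to −2.24 (1.14). Cd5l, a secreted protein of resident macrophages, went the other way, from −1.45 to −3.44 (−1.99), as did Clec7a, the receptor dectin-1, from −2.41 to −3.82 (−1.41). With normexp background correction the difference of Clec7a was −0.56 and no longer past 2-fold. The complement genes C1qa, C1qb and C1qc, also made by these cells, were above background on the untreated array alone and at least 2.73-fold, 2.65-fold and 5.17-fold lower. Lyz2, Ptprc, Csf1r, Cd14 and Cd68 gave 0.67, 0.35, 0.27, 0.18 and 0.17.

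Of the 19 macrophage markers on the array, 14 were above background on the untreated array and 11 on the palmitate array. The summed level of all 19, relative to the 75th percentile, was 29.1 and 33.6 (29.0 and 32.3 without Marco). This sum of linear values is carried mainly by bright members such as Cd14 (log2 levels 3.72 and 3.90) and Cd68 (2.27 and 2.44). Dim members such as Cd5l weigh little in it. The Kupffer cell markers Clec4f, Timd4, Vsig4 and Cd163 were not well above background on either array. Other leukocyte genes, named after their values were seen, were also at least 2-fold higher at low levels. They were Cd52 (1.55), Slc11a1 (1.19), Hcls1 (1.21), Coro1a (1.15), Clec4n (1.20), Clec4a1 (1.21) and Fcer1g (1.01). The part of macrophages in the chemokine and interferon groups was not tested. Markers of hepatocytes were all measured, 12 of 12, with a median of −0.036, and Alb, the albumin gene, read 8.82 and 8.73. Endothelial markers were measured for 8 of 12 with a median of −0.18, stellate cell and cholangiocyte markers for 4 of 10 and 4 of 7, and neutrophil and lymphocyte markers for 1 of 9 and 2 of 9.

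In the list of pattern recognition receptors, which holds Marco and Clec7a, the other 17 measured genes stayed under 2-fold. Tlr2 gave 0.51, Tlr4, the receptor of bacterial lipopolysaccharide, 0.34, and Tlr3 0.66, and the adaptor gene Myd88 gave −0.04. A second measured probe of Tlr4 gave −0.26. Genes of MHC and antigen presentation gave 0 higher and 0 lower of 15, with a median of 0.13, among them B2m at 0.21 and H2-K1 at 0.13. Acute phase proteins, which hepatocytes secrete in inflammation, gave 0 higher and 0 lower of 25, with a median of −0.02. Hp (haptoglobin) read 0.52, Lcn2 0.45, Saa1 −0.06 and Fgb −0.19. Cebpd, a transcription factor of the acute phase response, was higher, from a signal of 1532 to 3448 and a level of 1.66 to 3.02 (1.37, 2.58-fold). Its relatives Cebpb and Cebpa gave 0.24 and −0.21. Nr1i3, the xenobiotic receptor CAR, gave 1.38 close to background.

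**Figure D4:**
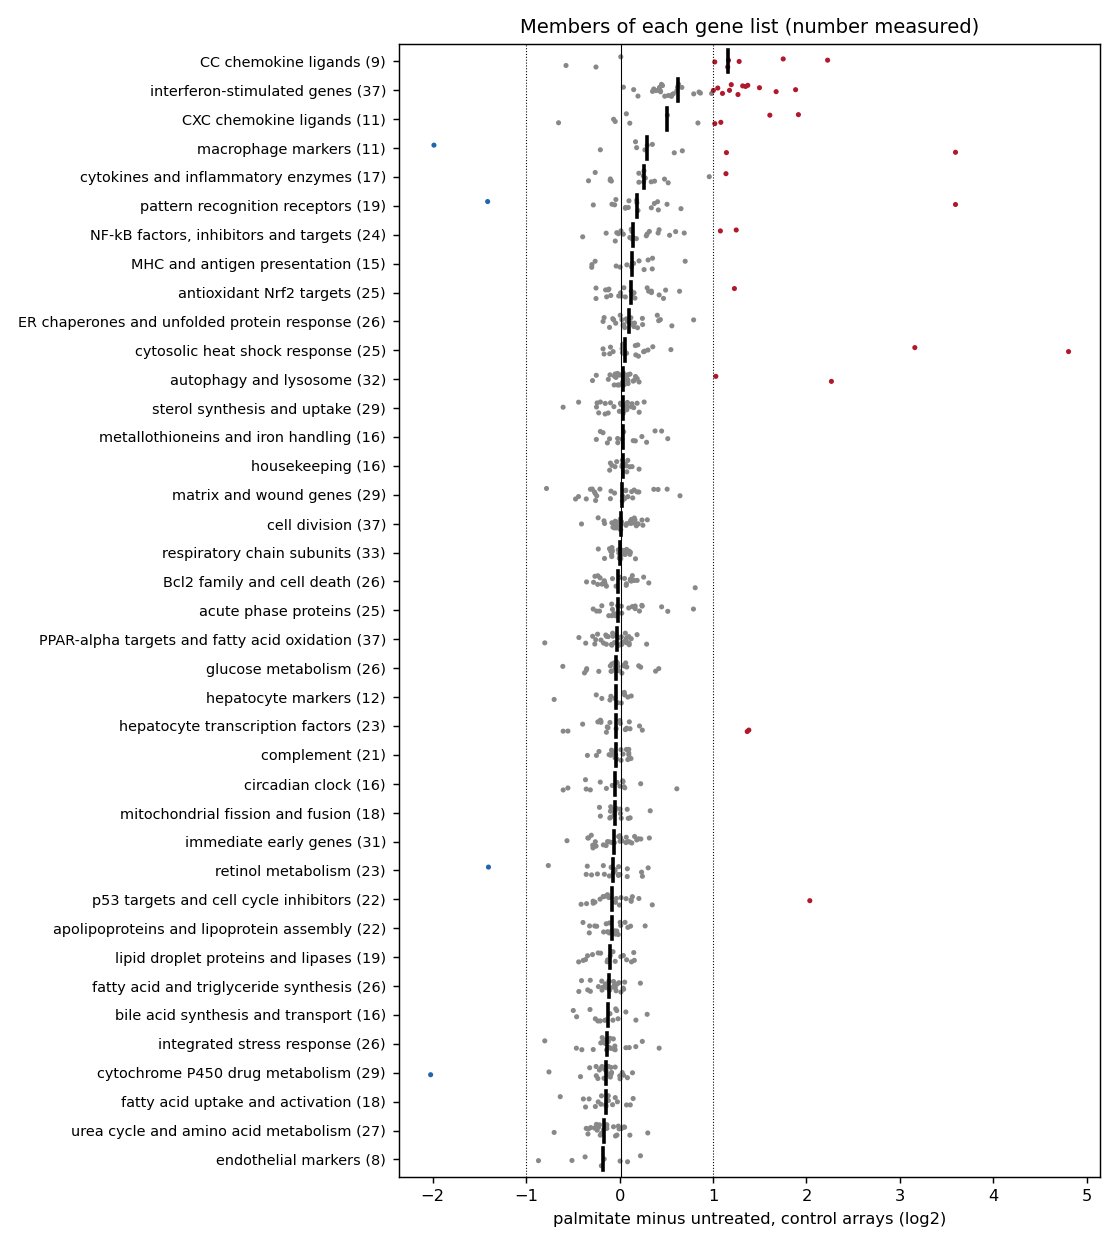
Difference, palmitate minus untreated (log2), of each measured member of the gene lists, 1 point per gene, with the number measured in brackets and the list median as a black bar. Red and blue points passed 2-fold higher and lower, and the solid line is the median of all genes. CC chemokines, interferon-stimulated genes and CXC chemokines have medians of 1.16, 0.62 and 0.51, and the medians of the metabolic lists lie near or below 0.

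Stress pathways other than the cytosolic chaperones differed less. Of 26 measured genes of ER chaperones and the unfolded protein response 0 passed 2-fold in either direction, against 1.11% of all genes. The list median was 0.10. Dnajb9, an ER co-chaperone induced through Xbp1, gave the largest difference with 0.74 and 1.54 (0.79), and its second probe gave 0.69. Hspa5, the ER chaperone BiP, read 6.61 and 6.73 (0.12). Derl3, a factor of ER-associated degradation outside the list, gave 1.54 and was named after its value was seen. In the integrated stress response, the branch that runs through Atf4, 0 of 26 passed 2-fold, 21 of 26 lay below the median of all genes, and the list median was −0.13. Ddit3, the death factor Chop, read 1.96 and 1.55 (−0.40), Nupr1 3.33 and 3.19 (−0.15), and Fgf21, a hormone of the fasted liver, −0.51 and −1.31 (−0.80).

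Of 25 antioxidant targets of Nrf2, 1 was higher and 0 lower, against 0.850% and 0.256% of all genes, with a median of 0.12. Hmox1, which degrades haem, went from a signal of 4452 to 9112 and from a level of 3.20 to 4.43 (1.23, 2.34-fold). Gclm gave 0.64, with 4 lit neighbours on the untreated array. Nqo1 gave 0.34, Txnrd1 0.16 and Nfe2l2, the gene of Nrf2 itself, −0.14. A second measured probe of Txnrd1 gave 0.42. Metallothionein genes Mt1 and Mt2 gave 0.17 and 0.15, and a second probe of Mt1 gave −0.45. Of 22 p53 targets and cell cycle inhibitors 1 was higher, Cdkn1c (2.04), while Cdkn1a and Mdm2 gave −0.11 and 0.07. Of 26 genes of cell death 0 passed 2-fold, with a median of −0.02.

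Genes of fatty acid handling showed no 2-fold difference with the added palmitate. Of 37 PPAR-alpha targets and genes of fatty acid oxidation 0 were higher and 0 lower, against 0.850% and 0.256% of all genes. The list median was −0.03. Pdk4, which spares glucose by inhibiting pyruvate dehydrogenase, read −1.75 and −1.46 (0.29). Angptl4, an inhibitor of lipoprotein lipase, read 5.97 and 6.08 (0.10), and Cpt1a, which carries acyl groups into mitochondria, 1.84 and 1.85 (0.01). The targets Cyp4a10, Acot1 and Ehhadh gave −0.24, 0.03 and −0.29.

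The lists on uptake, storage and synthesis leaned below the bulk. Of 18 genes of fatty acid uptake and activation 0 passed 2-fold and 15 lay below the median of all genes, with a list median of −0.15. Acsl1, which activates long-chain fatty acids, read 2.24 and 2.21 (−0.02), Acsl4 gave 0.07, and Lpl, a lipase of other cell types in liver, gave −0.64, although its second measured probe gave 0.66. Of 19 lipid droplet proteins and lipases 0 passed, with a median of −0.10. Plin2, the main coat protein of hepatocyte droplets, had signals of 82614 and 68011 and levels of 7.41 and 7.33 (−0.09). Cidec, which fuses droplets, read 1.07 and 0.63 (−0.44), Hilpda gave −0.36 and Pnpla2, a triglyceride lipase, −0.20. Of 26 genes of fatty acid and triglyceride synthesis 0 passed, 22 lay below the median of all genes, and the list median was −0.11. Scd1, which desaturates palmitate and stearate, read 5.08 and 4.65 (−0.44) and its second probe gave −0.84, Acaca gave −0.34, Fasn −0.19 and Srebf1 −0.11. Sterol synthesis genes gave 0 of 29, with a median of 0.04.

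Differentiated liver functions lay slightly below the bulk in most lists. Of 29 cytochrome P450 genes 0 were higher and 1 lower, against 0.850% and 0.256% of all genes. Of the 29, 25 lay below the median of all genes, and the list median was −0.14. Cyp3a11, Cyp2e1 and Cyp2c29 gave −0.42, −0.25 and −0.09. Of 27 genes of the urea cycle and amino acid metabolism 0 passed 2-fold and 22 lay below the median of all genes, with a list median of −0.17. Ass1 gave −0.03. Cps1, read at low levels of −2.89 and −3.59, gave −0.70, and between −0.92 and −0.22 under the alternatives. Of 16 genes of bile acid synthesis and transport 0 passed, with a median of −0.12, and of 22 apolipoproteins 0, with a median of −0.08. Apob gave 0.09, Apoa1 −0.05 and Mttp, which loads lipid onto ApoB, −0.17. Retinol metabolism gave 1 lower of 23, Rarb, the retinoic acid receptor beta, which went from −0.43 to −1.83 (−1.40). Of the 23 hepatocyte transcription factors 2 were higher, Cebpd and Nr1i3, with a median of −0.04. Glucose metabolism gave 0 of 26, with Igfbp1 at −0.61 and Txnip at 0.42.

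Mitochondrial genes stayed close to the bulk. Of 33 respiratory chain subunits 0 passed 2-fold, against 1.11% of all genes. By the probes used, their differences ran from −0.23 to 0.17. Other measured probes of Atp5f1 disagreed, with 1.41 from a level of −3.53 and with −0.10 from 5.55. Of 18 genes of mitochondrial fission and fusion 0 passed, with a median of −0.05. Dnm1l, the gene deleted in the other genotype, read 2.42 and 2.43 (0.01) in these control cells, Mfn2 gave −0.04, Opa1 −0.10, Fis1 0.08 and Mff 0.09. Of 32 autophagy and lysosome genes 2 were higher, Lamp5 (2.27) and Calcoco1 (1.03), and the others lay between −0.29 and 0.21. For Calcoco1 the mean of its probes was 0.57. Of 37 genes of cell division, 31 immediate early genes and 16 clock genes 0 passed 2-fold, with medians of 0.02, −0.06 and −0.05. Of 29 matrix and wound genes 0 passed, with Krt19 at −0.78. Of 21 complement genes and 16 genes of metallothioneins and iron handling 0 passed. The 16 housekeeping genes lay between −0.11 and 0.21, with Gapdh at −0.03 and Actb at 0.06.

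Among the 12 largest negative differences with a gene symbol, the spots of Strn (−2.83), Cyp4f15 (−2.02), Chst1 (−2.02), Kcnu1 (−1.88), Adck2 (−1.85) and Rftn1 (−1.55) had between 2 and 5 lit neighbours on the untreated array. In the Drp1LiKO pair these 6 genes differed by between −0.25 and 0.16, with Kcnu1 not well above background throughout. Cd5l, Tff1, Htra1, Clec7a and Rarb had 0 such neighbours and Pmp22 1. Tff1, a trefoil peptide of mucous epithelia, went from a signal of 2058 to 582 and from a level of 2.08 to 0.46 (−1.63, 3.09-fold lower). ENSMUST00000180440, a transcript without a symbol named after its value was seen, had the highest level of the lower genes and went from a signal of 41934 to 10027 and a level of 6.43 to 4.56 (−1.87), and gave 0.18 in the Drp1LiKO pair. Htra1, a secreted serine protease, went from 2719 to 873 and from 2.49 to 1.04 (−1.44). Pmp22, a membrane protein of myelin and epithelia, went from 2.42 to 0.96 (−1.46), and its second measured probe gave −0.70. Among genes above background on the untreated array alone, Lrrc36, Vmn2r94 and Kcnab2 were at least 14.4-fold, 10.6-fold and 9.86-fold lower, with 4, 5 and 3 lit neighbours.

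Other large positive differences were at low levels. Besides Hspa1a, Hspa1b, Marco and Ccl7, the 12 largest with a gene symbol were Lamp5 (from −4.18 to −1.92), Klra16, Morn1, Cdkn1c (from −3.58 to −1.55), Gpr152, Efcab9, Arc (from −4.28 to −2.29) and Rhoj, with differences from 1.96 to 2.27. All 8 had an untreated level under −3. In the Drp1LiKO pair, where the probes of Morn1, Efcab9 and Arc were not all above background, the differences ranged from −0.80 to 0.52. Arc, an immediate early gene of neurons, gave −0.80 in that pair. Of the 143 higher genes, 78 have a symbol and 35 are in one of the 43 lists, and of the 43 lower genes 27 and 4. Over all 16829 measured genes, 12203 have a symbol and 842 (5.00%) are in a list.

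Read beside the Drp1LiKO pair, which holds other cells on the same 2 slides, 127 of the 143 higher genes were measured on all 4 arrays. Of these, 46 were at least 2-fold higher in Drp1LiKO hepatocytes too, 109 were higher by any amount, and 2 were at least 2-fold lower. Over all 16611 genes measured on the 4 arrays, the same counts in Drp1LiKO were 238, 8628 and 71. Of 40 lower genes measured on all 4 arrays 3 were at least 2-fold lower there, namely Cd5l (−3.07), Clec7a (−2.24) and Jam2 (−1.12). Hspa1a differed by 4.80 in control and 3.83 in Drp1LiKO, Hspa1b by 3.16 and 3.09, and Marco by 3.59 and 2.77. In Drp1LiKO, Ccl7 gave 1.76, Ccl2 1.79, Cebpd 1.55 and Nfkbiz 1.38. Hmox1 differed, with 1.23 in control and 4.40 in Drp1LiKO, where its untreated level was 0.36 against 3.20 in control and its palmitate level 4.77 against 4.43. Differences between the pairs were not tested, since each rests on 4 arrays with no replicate.

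**Figure D5:**
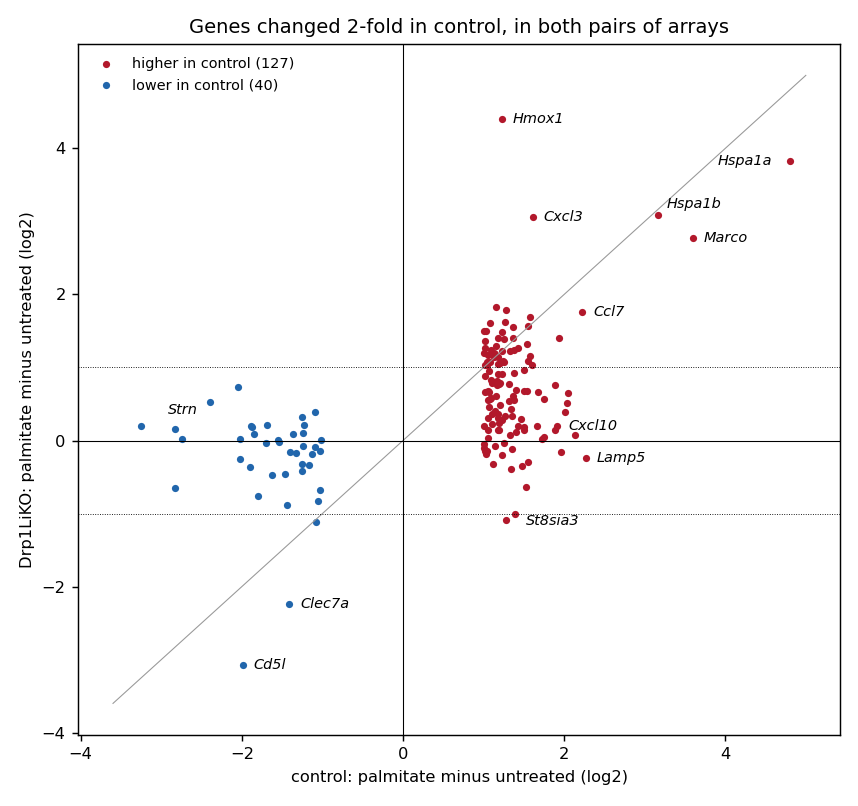
Difference, palmitate minus untreated (log2), in control (x axis) and in Drp1LiKO hepatocytes (y axis) for the 127 higher (red) and 40 lower (blue) genes measured on all 4 arrays. The grey line marks equal differences and dotted lines 2-fold. Hspa1b lies near the line, Hspa1a and Marco lie below it, Hmox1 lies far above it, and most lower genes near 0 on the y axis.

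For 31 of the 37 interferon-stimulated genes the difference was larger in control than in the Drp1LiKO pair. In Drp1LiKO 2 of the 37 were at least 2-fold higher, Zbp1 (1.04) and Bst2, which gave 1.77 there and 0.63 in control. Of the 12 that were at least 2-fold higher in control, a choice that itself favours control, 1 was so in Drp1LiKO, and the medians of the 37 genes were 0.62 and 0.26. The untreated Drp1LiKO level was above the control palmitate level for 29 of the 37. Oas1a read 0.99 and 2.36 in control but 5.08 and 5.64 in Drp1LiKO. Rsad2 read −2.45 and −0.57 in control and 2.98 and 3.13 in Drp1LiKO, and Cxcl10 0.24 and 2.15 against 3.76 and 3.96. The CC chemokines had medians of 1.16 and 0.82 in the 2 pairs, and 4 of the 6 higher genes were also past 2-fold in Drp1LiKO. The list of NF-kB factors, inhibitors and targets had medians of 0.14 in control and 0.47 in Drp1LiKO.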

How the data were processed

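RNA was labelled with Cy3 and hybridised to 4 one-colour mouse arrays with 62976 spots each, 1 array per group. The deposited files hold intensity values on a linear scale, which the authors obtained with Feature Extraction (10.7.1.1 per the file headers, 9.5.1.1 per the submitters' processing notes) by subtracting background and detrending each array on its own. The arrays were not scaled to each other. The labels and the methods name different RNA kits. A second deposited table holds quantile-normalized intensities and served as an alternative.

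Here the processed signal was taken to log2 and the 75th percentile over non-control spots was subtracted per array. Outlier spots were left out and repeat spots averaged. A gene name was read by its brightest probe in the mean over the 4 arrays, and kept when that probe was well above background on both control arrays. Without replicates no test was made, and precision is limited by the number of arrays. The code that counts genes past 2-fold was run on simulated data with planted changes. These data held less noise than the arrays, so the run checked the code and not the counts given here.

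Genes were named by rule as the 12 largest rises and 12 largest falls with a gene symbol, the 2 members of each of 43 gene lists with the largest differences and the 2 with the highest levels, the 3 largest bounds in each direction, and 23 fixed genes such as Hmox1, Plin2 and Cpt1a. The members and lists were chosen with earlier results of these data known. Other genes, further list members among them, were picked with their values in view, and some list members are not reported here. Alternatives were the deposited table, normexp background correction (offset 50), the median or a loess fit for scaling, the mean of probes, 3 background filters, leaving out probes with lit neighbours, and another probe choice. A spike-in scale and a minimum level were added after the data were seen. Promoters came from RefSeq (GRCm38.p6), and those of Ccl2, Ccl7, Hmox1 and Cebpd were not used here. Python 3.11.15 with pandas 2.3.3 and statsmodels 0.14.6, and R 4.3.3 with limma 3.58.1, were used.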

Additional observations from a re-analysis of the deposited data

Results flagged for a closer look

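Among genes measured on all 4 arrays, 2 moved past 2-fold in opposite directions, up with palmitate in control hepatocytes and down in Drp1LiKO hepatocytes. St8sia3, a sialyltransferase, differed by 1.40 in control and by −1.01 in Drp1LiKO. Its signals were low, 68.1 and 156.5 in control and 55.2 and 23.7 in Drp1LiKO. A transcribed region of chromosome 4 without a gene name differed by 1.28 and −1.09, with signals of 29.9 and 63.3 in control and 131.9 and 53.6 in Drp1LiKO. Differences past 2-fold were most frequent at low levels. Each value rests on 1 array against 1, and the difference between the genotypes was not tested. Over all genes measured on the 4 arrays, 71 differed at least 2-fold downward in Drp1LiKO.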

How the results depend on the processing

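Under 12 alternatives the count of genes at least 2-fold changed went from 186 (143 higher, 43 lower) to 58 (41 and 17) with normexp background correction, which compresses low values, to 1060 (527 and 533) with genes above background on at least 1 control array, and to 2888 (1963 and 925) without a filter. In 2 alternatives chosen after seeing the data, the spike-in scale gave 81 higher and 73 lower, and a mean level of at least −2 left 68 (50 and 18). Leaving out probes with lit neighbours left 15 lower genes. The other alternatives stayed within 1.5 times. All genes together moved to a median of −0.205 on the spike-in scale and 0.224 without a filter. Of 38 named genes at least 2-fold changed, 26 were so in the same direction under each alternative that measured them, and none of the 176 named genes changed sign while called. Normexp brought Ccl4 to 0.91, Cxcl3 to 0.66, Zc3h12a to 0.70, Nr1i3 to 0.58, Arc to 0.93, Clec7a to −0.56 and Kcnu1 to −0.86, and Calcoco1, Efcab9, Ptgs2 and Rhoj also under 2-fold. On the spike-in scale Fgf21 (−1.02), Stab2 (−1.09) and Krt19 passed 2-fold. A second measured probe of Stab2 gave 0.42 before that scaling. The medians of interferon-stimulated genes and CC chemokines stayed above that of all genes by 0.39 to 0.62 and 0.57 to 1.17, and CXC chemokines by 0.09 to 0.52. Without a filter, probes at background raised the median of all genes above the medians of heat shock, ER, Nrf2, NF-kB and MHC genes. The own medians of these lists kept their sign in that setting. On the spike-in scale, which lowers every difference by 0.22, their own medians turned negative. In the main setting they lay between 0.053 and 0.144. No paired analysis was possible because each group has 1 array.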
